A study of Homo sapiens with 12 samples.

Results

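NUPR1, NIBAN1 and BEX2 are stress-related genes whose RNA was higher after ICG-001 than after C646 in PANC1 cells. They occupied 4 of the 34687 rows of a table of array signals, because NIBAN1 was read by a row named FAM129A and by a row named C1orf24, both older names of that gene. The members were chosen by their names, and the names were picked because their signals after ICG-001 exceeded those after C646 in PANC1, so that contrast is given as a description. The values came from HCT116, a human colorectal cancer cell line, and PANC1, a human pancreatic cancer cell line. Cells of both lines were kept for 12 or 96 h in 0.05% DMSO, in 10 uM ICG-001 or in 10 uM C646. DMSO is the solvent of the drugs, and the DMSO groups were the controls of their line and time point. The 2 lines, 3 treatments and 2 time points gave 12 groups, and every group was a single line grown in culture. A group was represented by a single column, in which the authors had averaged 2 arrays or, for PANC1 ICG-001 at 12 h, 3 arrays. No spread between arrays could be computed from these means, so the differences below have no replicate check, no error and no test.

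NUPR1 is a small nuclear protein that is switched on by many kinds of cell stress and was first found through its RNA in inflamed pancreas. NIBAN1 is a cytoplasmic protein whose RNA rises in endoplasmic reticulum (ER) stress and which acts on the phosphorylation of translation factors. BEX2 belongs to a family of small proteins encoded side by side on the X chromosome. Stressed cells phosphorylate the translation factor eIF2 alpha, which slows most protein synthesis but favors synthesis of the transcription factor ATF4. ATF4 turns on genes for amino acid synthesis, amino acid transport and tRNA loading, and the genes of further stress regulators such as DDIT3 and TRIB3. ICG-001 blocks the binding of the co-activator CBP to beta-catenin, and C646 inhibits the acetyltransferase activity of CBP and p300.

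In RefSeq (GRCh38.p14), NUPR1 lies at chr16:28532708-28538974, NIBAN1 at chr1:184791032-184974508 and BEX2 at chrX:103309346-103310990. The 250 bases before the start of NIBAN1 and BEX2 are shown because the rows of both genes were higher in every ICG-001 column than in every other column of the same line. NUPR1 met the same rule, but no promoter window was at hand for it. Both sequences are written 5′ to 3′ on the strand of the gene, which is the minus strand, and capitals mark CpG dinucleotides. They come from the RefSeq promoter windows at chr1:184974509-184974758 and chrX:103310991-103311240.
NIBAN1: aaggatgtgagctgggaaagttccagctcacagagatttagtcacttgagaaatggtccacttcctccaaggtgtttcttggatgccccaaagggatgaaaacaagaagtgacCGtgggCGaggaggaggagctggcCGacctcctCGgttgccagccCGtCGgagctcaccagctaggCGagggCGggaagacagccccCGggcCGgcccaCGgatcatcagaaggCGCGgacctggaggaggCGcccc
BEX2: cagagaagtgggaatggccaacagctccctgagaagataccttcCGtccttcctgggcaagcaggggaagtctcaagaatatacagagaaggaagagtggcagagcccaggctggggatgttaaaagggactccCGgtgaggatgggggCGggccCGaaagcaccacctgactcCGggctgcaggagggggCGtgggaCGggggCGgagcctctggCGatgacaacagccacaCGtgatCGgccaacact
Both stretches had a GC content of 61.2%, and they held 14 CpG dinucleotides for NIBAN1 and 11 for BEX2, against a median of 11 over all promoter windows. Searched on both strands, neither held TGATGNAAN (the element bound by ATF4 with C/EBP proteins), TGACGTCA (the cAMP response element) or its first letters TGACG. An element of TCF7L2, CTTTGAT, was not found either, nor CCAAT, nor TATAAA. The BEX2 window held TGACG on the strand opposite the gene, 20 bases past the start and outside the stretch shown. TGACG, which is also part of every TGACGTCA, was present in 24.6% of all 35116 windows. TGATGNAAN was present in 3.61% of them, TGACGTCA in 1.85%, CTTTGAT in 2.62%, CCAAT in 34.6% and TATAAA in 11.5%. Among 60 windows of the ATF4 genes listed below, 14 held TGATGNAAN. These matches describe letters in the windows and are not evidence of binding.

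Signal is the brightness of labelled RNA bound to a probe, on a linear scale and with the background left in it. The detection limit of a column was set from its background values and lay at 143.7 to 144.2 in HCT116 and at 135.2 to 138.1 in PANC1. Between 44.5% and 45.3% of the rows were above it in the HCT116 columns and between 44.4% and 47.4% in the PANC1 columns. The median signal was 139.1 to 139.6 in HCT116 and 132.7 to 133.5 in PANC1 columns, so signals were compared within a line and the lines through their ratios. The log2 ratios of rows that stayed under the limit had SDs of 0.062 to 0.073, which describes dim rows of array means and not the spread between cultures. The epithelial markers EPCAM, CDH1, KRT8, KRT18 and KRT19 were above the limit in all columns of both lines. Of 8 intestinal markers, only CDX2 was above it in all 6 columns of HCT116, as it was in PANC1, and CDX1, VIL1, LGALS4, CDH17 and PHGR1 were above it in none. Of 8 rows for pancreatic duct and PANC1 markers, 5 were above it in all 6 PANC1 columns and 4 in all 6 HCT116 columns. No blood marker was above it in all columns of either line, and of 5 fibroblast markers only COL1A1 was.

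The 3 genes were then followed through the 12 columns, beginning with NUPR1. In HCT116 cells, the NUPR1 row was near the detection limit, with signals of 151 at 12 h and 136 at 96 h in DMSO. It read 152 at 12 h and 153 at 96 h in C646, and 167 at 12 h and 262 at 96 h in ICG-001. The DMSO column at 96 h was under the limit, and only the ICG-001 column at 96 h stood more than 1.5-fold above the next column. In PANC1 cells, NUPR1 read 217 at 12 h and 497 at 96 h in DMSO. Its signal was 206 at 12 h and 334 at 96 h in C646, against 859.6 at 12 h and 1168.5 at 96 h in ICG-001. Both ICG-001 columns lay above the other 4, and the lowest of them was 1.73-fold above the highest of the rest, DMSO at 96 h. The order of the PANC1 columns was ICG-001 at 96 h and at 12 h, DMSO at 96 h, C646 at 96 h, DMSO at 12 h and C646 at 12 h. Only the steps from ICG-001 to DMSO at 96 h and from C646 at 96 h to DMSO at 12 h were at least 1.5-fold.

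The FAM129A row of NIBAN1 had signals of 225 at 12 h and 187 at 96 h in DMSO in HCT116 cells. It read 239 at 12 h and 329.8 at 96 h in C646, and 968 at 12 h and 1181 at 96 h in ICG-001. In the C1orf24 row the HCT116 signals were 237 and 197 in DMSO, 189.7 and 225 in C646, and 673 and 847 in ICG-001, at 12 and 96 h respectively. Both rows were thus high in the ICG-001 columns, and their lowest ICG-001 column was 2.94-fold (FAM129A) and 2.84-fold (C1orf24) above the highest of the other 4. In PANC1 cells, FAM129A read 187 at 12 h and 245 at 96 h in DMSO, 199.9 and 249 in C646, and 415 and 1056 in ICG-001. The C1orf24 signals in PANC1 were 211 at 12 h and 239.7 at 96 h in DMSO, 184 and 259 in C646, and 369.6 and 1079 in ICG-001. Here the ICG-001 column at 96 h stood far above the one at 12 h, by 2.54-fold in FAM129A and 2.92-fold in C1orf24. The 4 columns without ICG-001 lay within 1.5-fold of their neighbors in both rows and had no order beyond that. For C1orf24 the step from ICG-001 at 12 h to the next column was 1.42-fold.

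BEX2 was bright in HCT116 cells, at 1836 at 12 h and 2086 at 96 h in DMSO. Its signal was 1455 at 12 h and 1977 at 96 h in C646, and 4671 at 12 h and 5807 at 96 h in ICG-001. In PANC1 cells it read 278 at 12 h and 488 at 96 h in DMSO, 286 and 481 in C646, and 1022 and 1763 in ICG-001. The ICG-001 columns did not overlap with the others in either line, and the lowest of them was 2.24-fold above the highest other column in HCT116 and 2.09-fold in PANC1. The DMSO and C646 columns of PANC1 lay side by side at each time point, at 1.03-fold at 12 h and 1.01-fold at 96 h. Between the times, the lowest column at 96 h (C646) was 1.68-fold above the highest without ICG-001 at 12 h (C646).

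**Figure D1:**
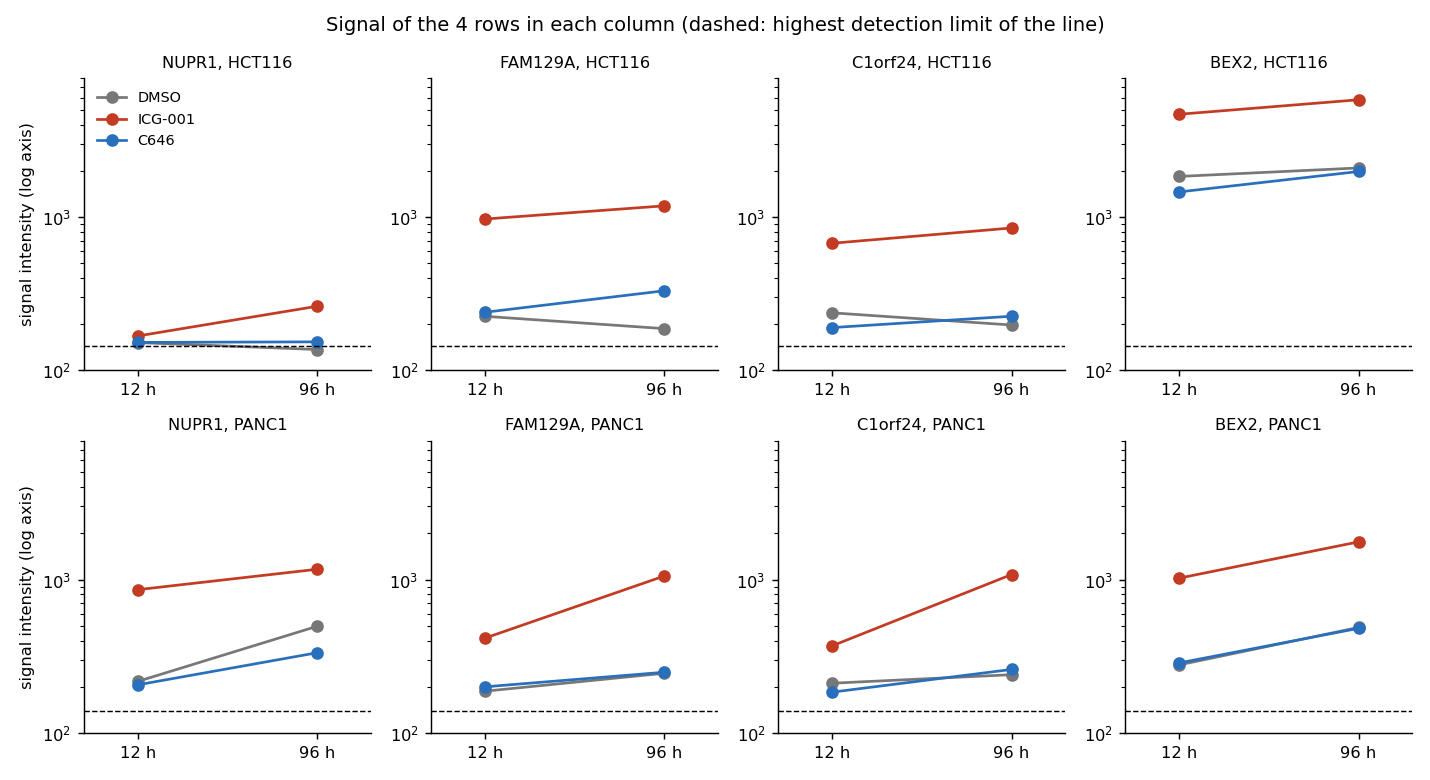
Signal intensity (log axis) of the rows NUPR1, FAM129A, C1orf24 and BEX2 at 12 and 96 h in DMSO, ICG-001 and C646, with HCT116 above and PANC1 below; each point is 1 column, the authors' mean of 2 or 3 arrays, and the dashed line is the highest detection limit of the line. The ICG-001 points lie above the others in all 8 panels, by as little as 1.09-fold for NUPR1 in HCT116 and as much as 2.94-fold for FAM129A in HCT116.

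All 4 rows had both ICG-001 columns above the other 4 columns of the line, in HCT116 and in PANC1. This was also true of 12% of all rows above the limit in some HCT116 column and of 9.42% in PANC1. With a gap of at least 1.5-fold it held for FAM129A, C1orf24 and BEX2 in HCT116, against 0.542% of all rows, and for NUPR1, FAM129A and BEX2 in PANC1, against 0.0984%, or 19 rows. The PANC1 columns of ICG-001 and C646 had chosen the genes, so the PANC1 counts are a description of that choice. The choice named no HCT116 column, but it was made with earlier results of these data known. The HCT116 counts are therefore a description too.

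To determine how each drug changed the 3 genes, treated columns were set against the DMSO column of the same line and time. Rows entered a comparison, and are called tested, if 1 column or both exceeded the limit, and they counted as higher at a ratio of at least 1.5. In RNA of whole cultures, more RNA per cell and more cells with the RNA cannot be told apart. After 12 h of ICG-001 in HCT116 cells, 3 of the 4 rows were higher, where 4.86% of 16902 rows tested were. The log2 ratios were 2.11 for FAM129A, 1.51 for C1orf24 and 1.35 for BEX2, and NUPR1 missed the threshold at 0.14. After 96 h all 4 were higher, against 5.18% of all rows. FAM129A was then 6.33-fold higher (log2 ratio 2.66), the 7th highest of 16938 rows. C1orf24 had a log2 ratio of 2.10 and BEX2 of 1.48. NUPR1 was at least 1.82-fold higher, taken from the limit because its DMSO column was under it. This value depended on the background in the signal, since normexp correction moved the log2 ratio of NUPR1 from 0.94 to 2.01.

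In PANC1 cells, all 4 rows were higher after 12 h of ICG-001, against 2.19% of all rows, and after 96 h, against 3.87%. These ratios use the ICG-001 columns by which the genes were picked. NUPR1, at 3.96-fold (log2 ratio 1.99), ranked 4th of 17198 rows at 12 h and was 2.35-fold higher (1.23) at 96 h. FAM129A had log2 ratios of 1.15 at 12 h and 2.11 at 96 h, and C1orf24 of 0.81 at 12 h and 2.17 at 96 h. BEX2 differed little between the times, with 1.88 at 12 h and 1.85 at 96 h. The epithelial markers were also lower in the ICG-001 column at 96 h. Against DMSO, 4 of their 6 rows were at least 1.5-fold lower (median log2 ratio -0.78), where 3.58% of all rows were, and none was at 12 h. KRT19 had the largest difference, at -1.17, and the summed signal of the list was lowest in that column, at 9468, where the highest PANC1 column had 21218. The part of these markers in the 96 h ratios was not tested.

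C646 was compared with DMSO in the same way. In HCT116 cells none of the 4 rows was 1.5-fold higher at 12 h, against 2.62% of all rows, with log2 ratios of -0.34 for BEX2, -0.32 for C1orf24, 0.0043 for NUPR1 and 0.088 for FAM129A. FAM129A was 1.77-fold higher (0.82) at 96 h, the only one of the 4, against 1.91% of all rows. C1orf24, the other row of NIBAN1, stood at 0.19 in that comparison. In PANC1 cells none of the rows was 1.5-fold higher at 12 h, against 4.02%, or at 96 h, against 2.83%. NUPR1 was lower at 96 h, at 334 in C646 and 497 in DMSO, with a log2 ratio of -0.57 that just missed the threshold. The other PANC1 values lay between -0.19 and 0.11. ICG-001 and C646 were compared with the same DMSO columns, so these ratios share their control.

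A comparison of the drugs with each other uses no DMSO column. In HCT116 cells, ICG-001 exceeded C646 by 1.5-fold in 3 of 4 rows at 12 h, against 3.47% of all rows, and in 4 of 4 at 96 h, against 3.25%. FAM129A was 4.06-fold higher (log2 ratio 2.02) at 12 h and 3.58-fold (1.84) at 96 h, and C1orf24 had log2 ratios of 1.83 and 1.91. BEX2 had 1.68 at 12 h and 1.55 at 96 h. NUPR1 had 0.14 at 12 h and 0.77 at 96 h. In PANC1 cells, where the genes were chosen by this contrast, all 4 rows were higher at 12 h, against 1.58%, and at 96 h, against 3.34%. NUPR1 had log2 ratios of 2.06 at 12 h and 1.81 at 96 h. BEX2 had 1.84 and 1.87, FAM129A 1.06 and 2.09, and C1orf24 1.00 and 2.06. In this contrast, all 6 epithelial marker rows were 1.5-fold lower at 96 h (median log2 ratio -0.85), where 3.5% of all rows were, and none was at 12 h; their part in the ratios was not tested. Ratios of at least 1.5-fold at both times were found in 120 rows of PANC1, or 0.733%, and in 223 rows of HCT116, or 1.43%, of which FAM129A, C1orf24 and BEX2 were 3. Just inside that threshold were METRN, LOC643031 and TRIM25, whose smaller log2 ratio was 0.59 in each. Just outside were RAB32, C15orf17 and LOC285216, with 0.58 in each.

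**Figure D2:**
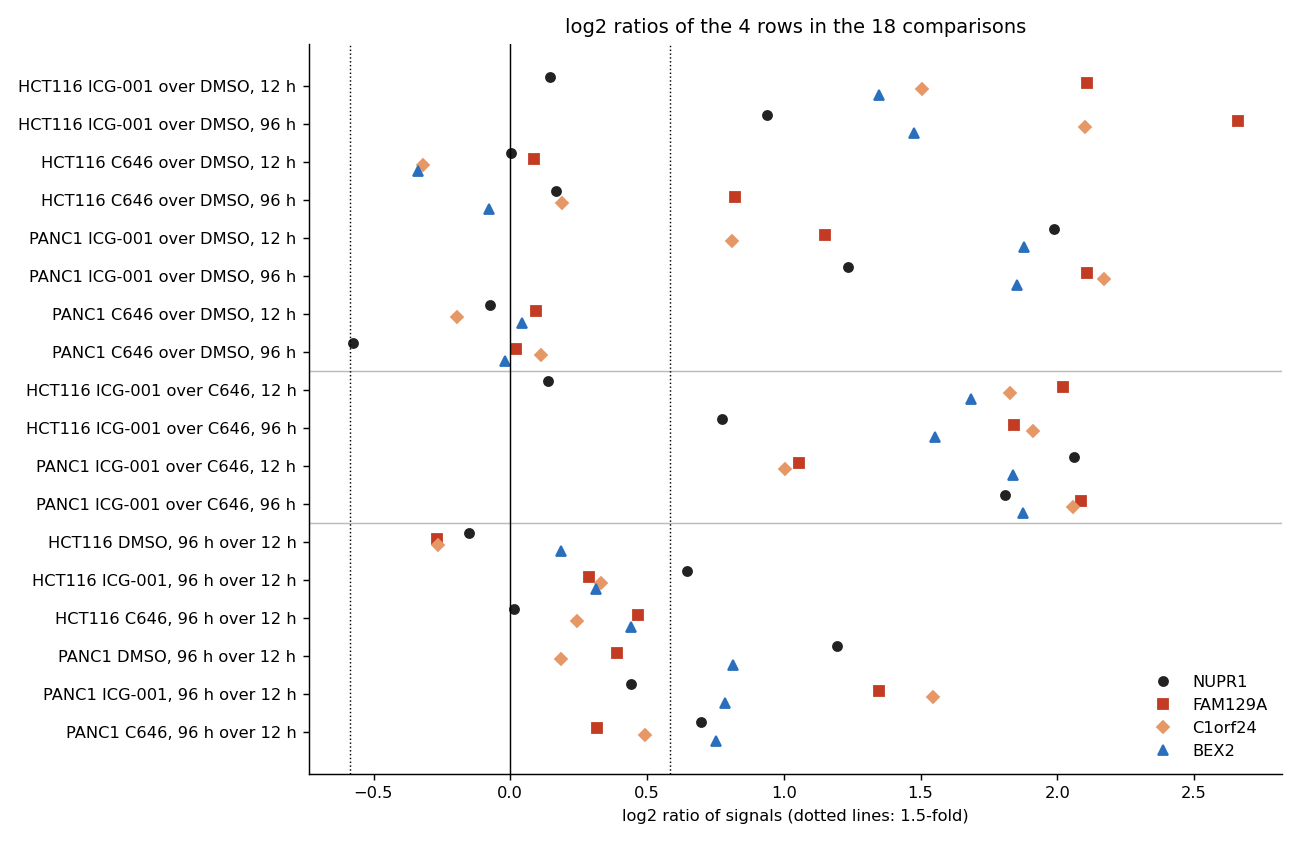
log2 ratios of the rows NUPR1, FAM129A, C1orf24 and BEX2 in the 18 comparisons of 2 columns; dotted lines mark 1.5-fold, gray lines part the comparisons with DMSO, of the drugs with each other and of the times, and each point comes from 1 pair of columns with no error. Ratios of ICG-001 over DMSO or C646 reach 2.66 (FAM129A) and fall short of 1.5-fold only for NUPR1 in HCT116 at 12 h, while those of C646 over DMSO lie between -0.57 and 0.82.

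Over both lines, both times and both references, ICG-001 was at least 1.5-fold higher in all 8 comparisons for 30 of 13556 rows, or 0.221%. FAM129A, C1orf24 and BEX2 were among them. NUPR1 was not, and it missed through HCT116 at 12 h alone. Other rows that passed included TRIB3, DDIT3, CEBPB, CEBPG, PSAT1 and PCK2. The 8 comparisons share columns and are not 8 separate observations. Those in PANC1 use the ICG-001 columns by which the genes were picked, so passing them was partly set by that choice. FAM129A and C1orf24 read the same gene.

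The lines were compared through these ratios. NUPR1 responded to ICG-001 over DMSO more in PANC1 than in HCT116 at 12 h, by 1.84 on the log2 scale as measured. The HCT116 signals there, 167 and 151, were near the limit with background left in, so the size of this difference is not exact. At 96 h no direction could be given, because the HCT116 ratio was a lower bound: it was 0.94 against 1.23 in PANC1 as measured, and 2.01 against 1.41 with normexp correction. FAM129A ran the other way at 12 h, with a PANC1 ratio lower by a log2 difference of -0.96, and C1orf24 did so with -0.70. At 96 h the line difference was -0.55 for FAM129A and 0.068 for C1orf24, so the NIBAN1 rows gave no common direction there. BEX2 had a higher ratio in PANC1 at both times, by 0.53 at 12 h and 0.38 at 96 h. These differences between lines could not be tested with 1 column per group.

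The time points were compared next, by setting each 96 h column against the 12 h column of the same treatment. According to the paper, cultures for the longer treatment were less dense at its start and were passaged, with medium and drug renewed daily. The ratios between times therefore mix duration with density, passage and feeding, and the part of each was not tested. In PANC1 cells in DMSO, 2 of the 4 rows were higher at 96 h, against 0.982% of all rows. NUPR1 was 2.29-fold higher (log2 ratio 1.19), the 9th highest of 16498 rows, and BEX2 was 1.76-fold higher (0.81). In C646 the same 2 rows were higher, against 0.402%, with 0.70 for NUPR1 and 0.75 for BEX2. In ICG-001 3 rows were higher, against 2.23%: C1orf24 at 1.55, FAM129A at 1.35 and BEX2 at 0.79, with NUPR1 at 0.44. All 4 rows were higher at 96 h in all 3 treatments in PANC1, as were 19.5% of all rows. BEX2 was 1 of 12 rows, or 0.0792%, with at least 1.5-fold in all 3.

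In HCT116 cells, fewer of the 4 rows passed 1.5-fold with time, although more of all rows did than in PANC1 in each treatment. None of the 4 was 1.5-fold higher at 96 h in DMSO, against 1.57% of all rows, and none in C646, against 3.83%. Finding none among 4 rows is near such shares. In ICG-001 only NUPR1 was, at 0.64, against 4.1%. BEX2 alone of the 4 was higher at 96 h in all 3 HCT116 treatments (0.18 to 0.44), as were 25.4% of all rows. The DMSO values of HCT116 were -0.15 for NUPR1, -0.27 for FAM129A, -0.26 for C1orf24 and 0.18 for BEX2.

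As the rows FAM129A and C1orf24 read 1 gene, their disagreement gave a measure of how far a ratio could be off. Over the 6 columns of a line, their log2 signals correlated with r = 0.98 in HCT116 and 0.99 in PANC1, against a median of 0.68 over 238 pairs of rows sharing a gene in HCT116 and 0.46 over 247 pairs in PANC1. These values describe 6 columns that share 3 treatments. The log2 ratios of the 2 rows differed by up to 0.63, in HCT116 C646 over DMSO at 96 h, which was more than in 94.7% of 208 pairs. They differed by 0.60 and 0.56 for ICG-001 over DMSO in HCT116, with FAM129A larger both times. In PANC1 the largest difference was 0.34, for ICG-001 over DMSO at 12 h. The FAM129A ratio of C646 over DMSO in HCT116 at 96 h was therefore not matched by the other row, while both rows passed 1.5-fold in all 8 ICG-001 comparisons.

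A further row, P8, carries an older name of NUPR1 that RefSeq also gives to NUPR2 and S100A8, and it was added after its values were seen. In PANC1 it read 159 at 12 h and 318 at 96 h in DMSO, 157 and 237 in C646, and 484 and 791 in ICG-001. Its HCT116 signals were 134 and 125 in DMSO, 141 and 134 in C646, and 151 and 174 in ICG-001, with only the ICG-001 columns above the limit. The rows NUPR1 and P8 correlated with r = 0.99 in PANC1 and 0.95 in HCT116 over 6 columns. The rows of NUPR2 and S100A8 were under the limit in all 12 columns, at most 129.6 for NUPR2 and 139.7 for S100A8. Read by P8, ICG-001 over DMSO in PANC1 had log2 ratios of 1.61 at 12 h and 1.31 at 96 h. In HCT116 at 96 h the P8 ratio was at least 1.21-fold, against at least 1.82-fold for the NUPR1 row, and did not reach 1.5-fold.

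**Figure D3:**
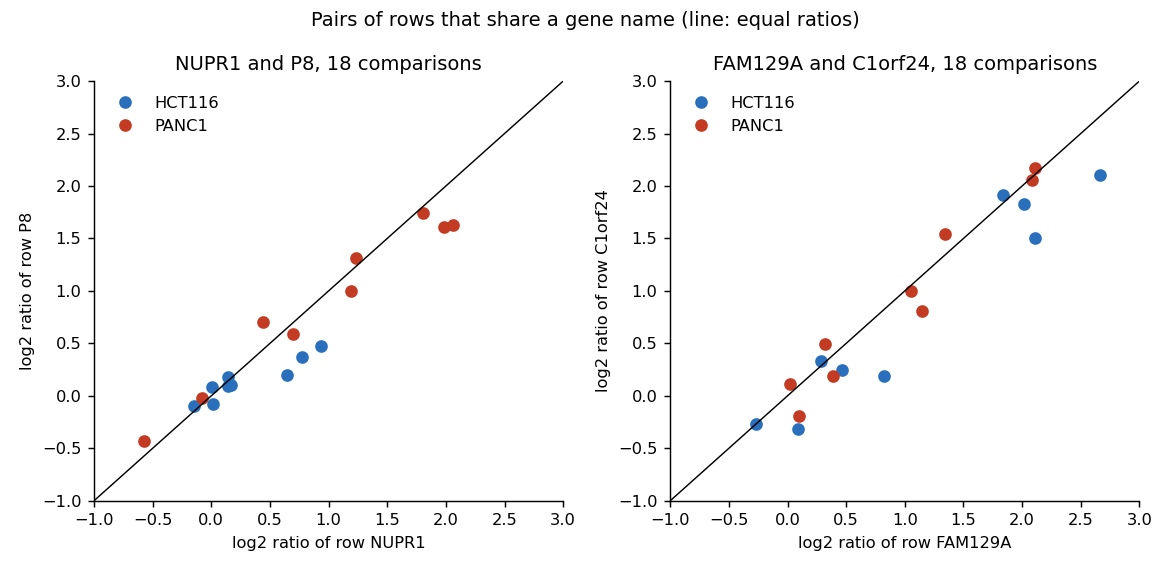
log2 ratios of P8 against NUPR1 (left) and of C1orf24 against FAM129A (right) in the 18 comparisons, 1 point each, colored by cell line, with the line of equal ratios. The points follow the line, with C1orf24 below FAM129A by as much as 0.63 and P8 below NUPR1 by as much as 0.46, both in HCT116.

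BEX2 was then set beside its neighbors in the BEX and TCEAL family, small related genes of the same stretch of the X chromosome. BEX1, a close relative in sequence, read between 307 and 391 in HCT116 and between 232 and 319 in PANC1, and its ICG-001 columns overlapped with the others in both lines. BEX3 (row NGFRAP1) also overlapped in both lines. BEX4 did not overlap in PANC1, where it read 156 at 12 h and 191 at 96 h in ICG-001 and at most 141 in the other columns. Its second row, BEXL1, read 178 and 228 in ICG-001 and at most 155 in the others, while both rows were under the limit in all HCT116 columns. Probe sequences were not used here, and binding of BEX1 RNA to the BEX2 probe was not tested. Of the 14 rows of BEX and TCEAL genes other than BEX2, 6 could be tested in HCT116 against DMSO and 10 in PANC1. None was higher in HCT116 at either time, against 4.86% and 5.18% of all rows. In PANC1 none was higher at 12 h, against 2.19%. BEXL1, a row of BEX4, was higher there at 96 h, at 0.64, against 3.87%. TCEAL9 (row WBP5) was lower in HCT116 at 12 h at -0.60, where 4.19% of all rows were lower, and TCEAL8 at 96 h at -0.68, against 5.16%. In PANC1 at 96 h TCEAL1 was lower at -0.70, against 3.58%. Over C646, none of these rows was higher in either line, where 1.58% to 3.47% of all rows were.

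NIBAN2 (row FAM129B), the relative of NIBAN1, had log2 ratios of ICG-001 over DMSO of 0.40 and 0.14 in HCT116 and of 0.21 and 0.17 in PANC1, at 12 and 96 h. NIBAN3 (row FAM129C) was under the limit in all 12 columns. Of the 8 genes listed as the NIBAN family and partners of NIBAN1, 5 could be tested. None of the 5 was 1.5-fold higher in any comparison of a drug with DMSO or of the drugs with each other. The shares of all rows higher in these comparisons ran from 1.58% to 5.18%. The 5 included EIF2S1, which encodes eIF2 alpha, and EIF4EBP1, a repressor of translation with ratios of ICG-001 over DMSO of 0.37 and 0.48 in HCT116. The rows named NPM1 and MDM2 were under the limit throughout, so nothing was measured for these 2 partners.

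**Figure D4:**
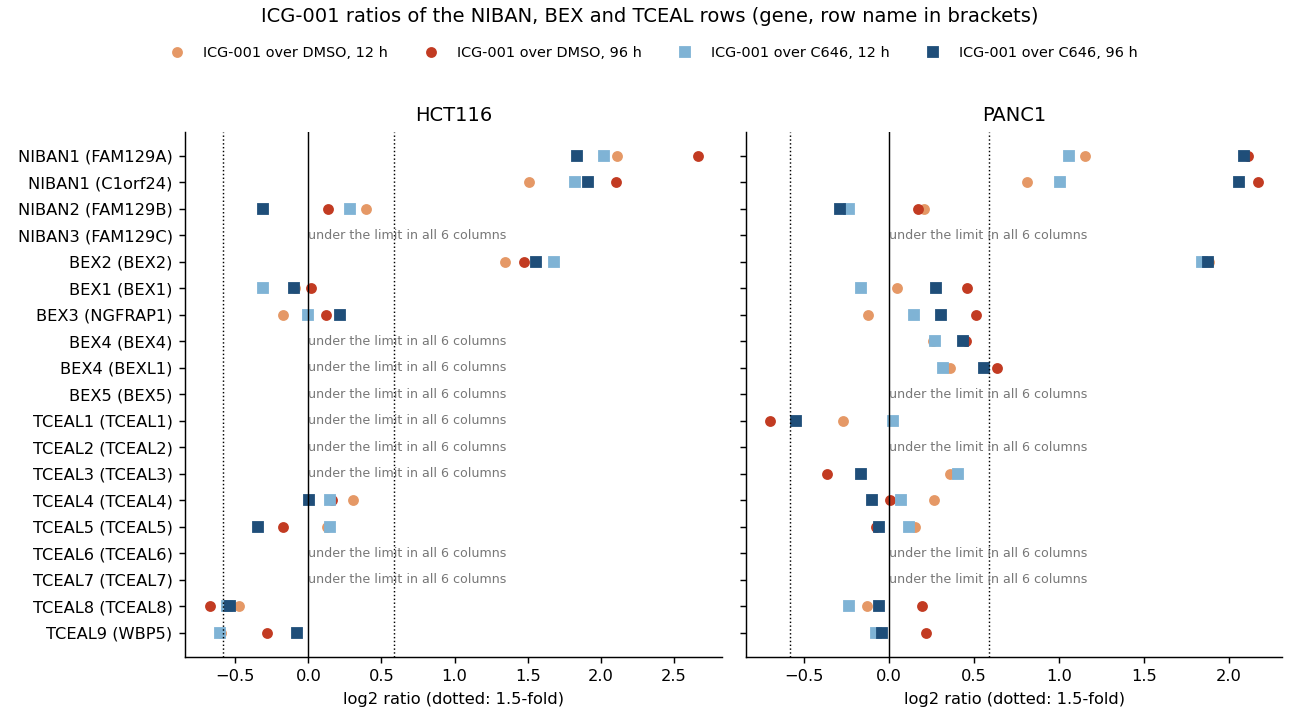
log2 ratios of ICG-001 over DMSO (circles) and over C646 (squares) for the NIBAN, BEX and TCEAL rows in HCT116 (left) and PANC1 (right), 1 pair of columns per point; dotted lines mark 1.5-fold. The rows of NIBAN1 and BEX2 lie at 0.81 or more in both panels, and of the others only BEXL1 in PANC1, at 0.64, passes 1.5-fold upward.

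NUPR1 is known to bind p300 and several other nuclear proteins and to act on TRIB3, RELB, IER3 and AURKA. Of 14 genes on this list, which holds ATF4, TRIB3 and DDIT3 as well, 13 could be tested in PANC1. After ICG-001 over DMSO, 4 were higher at 12 h and 2 at 96 h, when 2 were lower. Among all rows tested, 2.19% were higher at 12 h and 3.87% at 96 h, when 3.58% were lower. TRIB3, a pseudokinase that restrains AKT, had log2 ratios of 2.73 and 2.10, and DDIT3, a transcription factor of late stress, 0.82 and 1.13. RELB, an NF-kB subunit, stood at 0.03 and 0.40, and IER3, a regulator of survival, at 0.70 and -0.69. EP300, which encodes p300, was at -0.15 and -0.13. In HCT116, IER3 had 1.25 and 0.86, CDKN1A, which stops the cell cycle, 1.06 and 1.12, and AURKA, a mitotic kinase, -0.30 and -1.06. The list thus held rows in both directions, and its median in PANC1 was 0.072 at 12 h and 0.070 at 96 h, against 0.0006 and 0.0021 over all rows tested.

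The other genes of the ATF4 stress programme were taken from a list of 46, of which 43 had a row. After ICG-001 over DMSO, 25 of 40 tested rows were higher in HCT116 at 12 h and none lower, and at 96 h 29 were higher and 1 lower. Their median log2 ratio was 0.75 at 12 h and 0.91 at 96 h, against 0.0017 and 0.0056 over all rows. Among all rows tested in HCT116, 4.86% and 5.18% were higher and 4.19% and 5.16% lower. In PANC1, 27 of 42 were higher at 12 h and none lower, where 0.337% of all rows were lower, and at 96 h 31 were higher and 1 lower, with medians of 0.76 and 0.73. Over C646 in PANC1, 24 and 26 of 42 were higher and none lower, where 0.931% of all rows were lower at 12 h, with medians of 0.68 and 0.69. Among all PANC1 rows tested, 2.19% and 3.87% were higher over DMSO, and 1.58% and 3.34% over C646. C646 over DMSO gave 1 and 5 higher rows of 40 in HCT116, and 2 of 40 and 1 of 41 in PANC1, at 12 and 96 h. The matching shares of all rows were 2.62% and 1.91% for HCT116. For PANC1 they were 4.02% and 2.83%. Only the 5 of 40 at 96 h in HCT116 stood well above their share. In the same order, 2, 0, 1 and 1 rows of the list were lower.

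By the size of ICG-001 over C646 in PANC1 at 96 h, the top of the list was PSAT1 at 1.65, TRIB3 at 1.61 and CEBPG at 1.44. PSAT1 makes serine and CEBPG is a partner of ATF4. FAM129A (2.09), C1orf24 (2.06), BEX2 (1.87) and NUPR1 (1.81) all exceeded these, but this contrast had chosen the genes. At the bottom were SLC38A2, an amino acid transporter, at -0.21, ALDH18A1, an enzyme of proline synthesis, at -0.11, and CARS, a tRNA ligase, at -0.041. The choice named no HCT116 column, but earlier results of these data were known when it was made. In HCT116 the list's medians of ICG-001 over C646 were 0.81 and 0.82. FAM129A, C1orf24 and BEX2 were above the median at both times, and NUPR1 was below it at both.

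**Figure D5:**
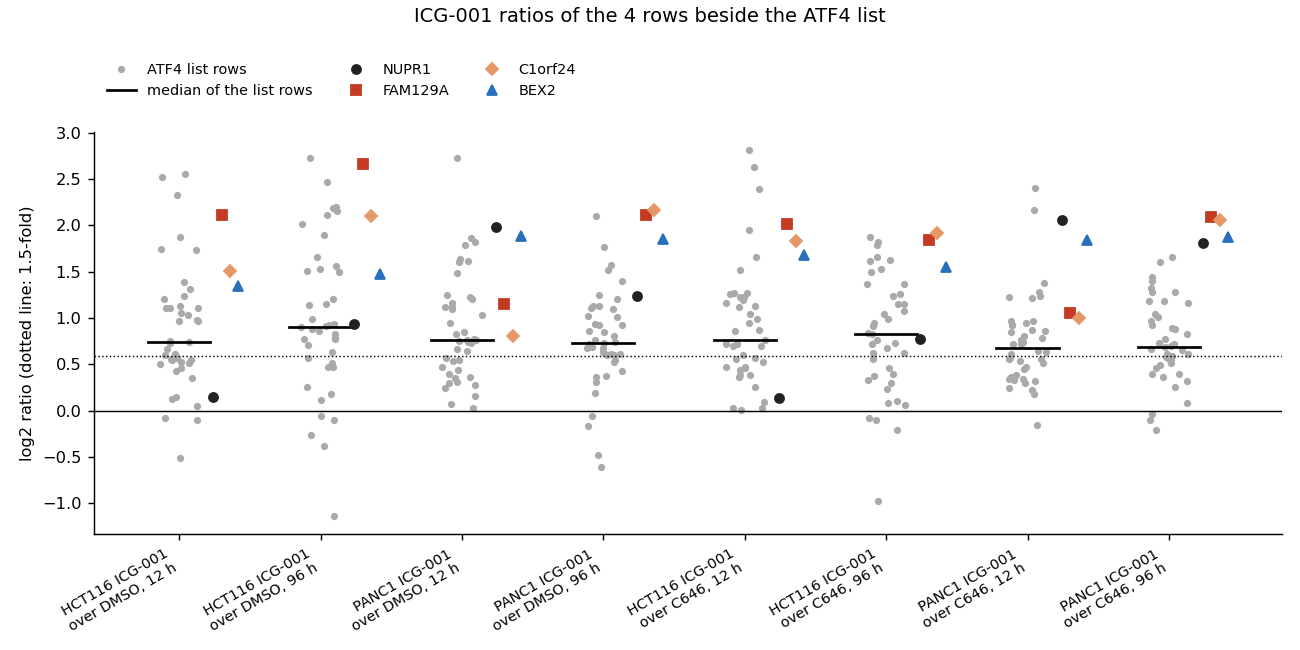
log2 ratios of ICG-001 over DMSO and over C646 for the rows of the ATF4 list (gray points, with their median as a black line) beside NUPR1, FAM129A, C1orf24 and BEX2; the dotted line marks 1.5-fold and each point is 1 row in 1 pair of columns. The list medians lie between 0.68 and 0.91, and NUPR1 is below them in HCT116 at 12 h, at 0.14 against both references.

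ATF4 itself had log2 ratios of ICG-001 over DMSO of 0.35 and 0.71 in HCT116 and of 1.12 and 0.53 in PANC1, at 12 and 96 h. Among the 7 genes for eIF2 alpha, its kinases and its phosphatase subunits, PPP1R15A, which brings the phosphatase to eIF2 alpha, was the row with the largest ratios, at 2.56 and 0.99 in HCT116 and 1.12 and 0.93 in PANC1. EIF2AK4, the kinase that senses amino acid shortage, had 0.44 and 0.61 in HCT116 and 0.70 and 0.61 in PANC1 over DMSO. Against C646, EIF2AK4 in HCT116 had -0.68 at 12 h and -0.0016 at 96 h, the latter within the SD of dim rows (0.070). The PANC1 values against C646 were -0.51 and -0.54. Apart from the HCT116 value at 96 h, these were opposite in sign to those of NUPR1, FAM129A, C1orf24 and BEX2. EIF2AK4 was also higher in C646 than in DMSO, with log2 ratios of 1.11 and 0.61 (HCT116) and 1.21 and 1.15 (PANC1). Its sign for ICG-001 thus depended on the reference. EIF2AK3, the kinase of ER stress, lay between -0.28 and 0.26 in all 8 comparisons of ICG-001.

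Of the 15 ER stress sensors and chaperones, more passed 1.5-fold upward than downward over DMSO in HCT116, whereas PANC1 at 96 h had the reverse. Over DMSO, 5 and 6 were higher and 1 and 1 lower in HCT116, and 2 and 3 were higher in PANC1, with none lower at 12 h and 5 at 96 h. For HCT116, all rows tested gave upward shares of 4.86% (12 h) and 5.18% (96 h), and downward shares of 4.19% and 5.16%. PANC1 shares were 2.19% and 3.87% upward, then 0.337% and 3.58% downward. Over C646 in PANC1 at 96 h, 3 of the list went up, where 3.34% of all rows did, and 4 went down, against 3.5%. HERPUD1, which helps to degrade misfolded proteins, had the largest of these ratios at 0.85, followed by ATF6, an ER stress sensor, at 0.70 and XBP1, a transcription factor, at 0.62. The smallest were those of the chaperones and folding enzymes PDIA4 at -0.91, HSP90B1 at -0.84 and SDF2L1 at -0.72.

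In DMSO alone, 13 of 41 rows of the ATF4 list were higher at 96 h than at 12 h in PANC1 and none lower. Among all rows, 0.982% were higher and 0.333% lower. The list median was 0.35, against 0.0056 over all rows. In HCT116 2 of 40 were higher and 6 lower, against 1.57% of all rows in either direction, with a median of -0.21. NUPR1 and BEX2 were higher at 96 h in the same PANC1 pair of columns, and NUPR1 and the NIBAN1 rows had negative values in the HCT116 pair. As above, cultures of these pairs differed in density, passage and feeding as well as in duration.

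Rows most like the members were sought among 2438 rows by Pearson's r of log2 signal over the 12 columns, after each line's mean was subtracted. The columns share treatments and lines and include those that chose the genes, and r is a description. The members were left out of the nearest rows. Nearest to NUPR1 were TESK1 (0.89), S100P (0.88), ATF4 (0.88), PSAT1 (0.88) and C15orf17, now FAM219B (0.88). Nearest to FAM129A were SLC6A9 (0.98), FLJ42627 (0.97), AKNA (0.96), NARS (0.96) and ARHGEF2 (0.96). For BEX2 the nearest were CEBPB (0.98), PCK2 (0.97), S100P (0.97), RCN1 (0.97) and ADM2 (0.97). NUPR1 and BEX2 had r = 0.89 with each other, and FAM129A and BEX2 had 0.93. NUPR1 and FAM129A had the lowest r among the members, 0.74. By place among the 2438 rows, BEX2 was number 2 for NUPR1, and C1orf24 was number 2 for FAM129A. BEX2 was number 47 for FAM129A, so many other rows were closer. NUPR1 was number 54 for BEX2 and number 297 for FAM129A.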

How the data were processed

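RNA of the 12 groups was measured on Illumina HumanHT-12 BeadChips. The deposited values are intensity on a linear scale. The authors had quantile-normalized the arrays in GenomeStudio, kept the background and averaged 2 or 3 arrays per group. Single arrays were not used here, so no test was run. Groups came from the sample labels.

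From the intensity values, log2 ratios were computed between columns of a line. The detection limit lay 2.33 SD above the mode of the log2 background of each column. A row entered a comparison if above the limit in either column, and 1.5-fold counted as higher or lower. Of the rows, 17755 carried a current RefSeq symbol, 3305 a unique older one, 144 an older one of several genes, 2669 a gene identifier, and 10814 matched nothing. The members and the lists of genes and markers were chosen with earlier results of these data known. Named rows were the members; the 5 rows most like NUPR1, FAM129A and BEX2; the NUPR1, NIBAN and BEX lists; the 3 largest and 3 smallest of the ATF4 and ER lists for ICG-001 over C646 in PANC1 at 96 h; and the rows beside the threshold. Other named rows, P8 and members of the eIF2 and marker lists among them, were chosen after their values were seen.

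Alternatives were fold thresholds of 1.2 and 2, a limit at 5 SD, no limit, centring of ratios, quantile normalization over all 12 columns, normexp (limma 3.58.1, R 4.3.3, offset 16) with quantile normalization within a line, and the column of the other time point as denominator. Ratios and limits were computed in Python 3.11.15 (scipy 1.17.1, numpy 2.4.6, pandas 2.3.3), figures with matplotlib 3.10.9, and the counting of rows was tested on simulated data. The proteins were not compared here, and NUPR1 has no promoter window shown here.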

Additional observations from a re-analysis of the deposited data

Results flagged for a closer look

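In NUPR1, C646 over DMSO had log2 ratios of 0.0043 and 0.17 in HCT116 and of -0.07 and -0.57 in PANC1, at 12 and 96 h. As measured, the signs were opposite in the lines, with a mean difference of 0.41 (HCT116 minus PANC1), and the difference was not tested. The HCT116 value at 12 h lay within the SD of dim rows (0.072), and the one at 96 h used a DMSO column under the limit, so it amounts to at least 1.06-fold and the mean difference is not exact.

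In C1orf24, C646 over DMSO had log2 ratios of -0.32 in HCT116 and -0.19 in PANC1 at 12 h and of 0.19 and 0.11 at 96 h. The signs were opposite at the 2 times, with a mean difference of 0.41 (96 h minus 12 h), and the difference was not tested. FAM129A, the other row of NIBAN1, had ratios of 0.088 and 0.095 at 12 h and of 0.82 and 0.022 at 96 h, so its signs did not differ between the times.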

How the results depend on the processing

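No paired analysis was possible because each group had 1 column, the mean of its arrays, and for the same reason no replicate could be left out. Of the 4 rows, 16 of 32 comparisons of a drug with DMSO were at least 1.5-fold higher. All of these were ICG-001 ratios except FAM129A after 96 h of C646 in HCT116. For ICG-001 with C646 it was 15 of 16, including the PANC1 comparisons that chose the genes. For 96 h with 12 h it was 8 of 24. FAM129A and C1orf24 read the same gene, and the share of all rows in each comparison is given above. No ratio past the threshold changed sign under any alternative. A 1.2-fold threshold gave 17 higher rows of 24 for time, of which HCT116 had 4 in ICG-001 and 2 in C646, and PANC1 4 in C646. A 2-fold threshold gave 3 for time, with 0 for ICG-001 in HCT116, 1 for DMSO and 0 for C646 in PANC1, and 0 for C646 over DMSO in HCT116 at 96 h. Normexp correction moved log2 ratios by -0.31 to 1.07 and gave 1 higher row for time in C646 in HCT116, where there had been 0. With the DMSO column of the other time as denominator, which moved log2 ratios by up to 1.19 either way, C646 over DMSO at 96 h gave 0 higher rows in HCT116 (1 before) and 2 in PANC1 (0 before). Reading NUPR1 by P8, an alternative chosen after seeing the data, gave 0 for time in ICG-001 in HCT116 (1 before) and 4 in PANC1 (3 before), and 3 of 4 rows in HCT116 at 96 h for ICG-001 over DMSO and over C646 (4 before in each). For these changes the cause was not tested. Quantile normalization over all 12 columns moved log2 ratios by -0.086 to 0.085 and centring by -0.0092 to 0.014. A limit at 5 SD or none can change only which rows are tested, so the members' ratios could not move. Signal close to the limit restricts what NUPR1 in HCT116 can show.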

Other observations

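Some rows of the same lists ran against the members over DMSO, and they were chosen after their values were seen. PTMA, which encodes prothymosin alpha, a binding partner of NUPR1, had log2 ratios of ICG-001 over DMSO of -0.75 and -1.36 in HCT116 and of -0.47 and -0.94 in PANC1, at 12 and 96 h. CALR, a chaperone of the ER, had -0.91 and -0.65 in HCT116 and -0.56 and -1.35 in PANC1. HYOU1, another ER chaperone, had -0.11 and -0.13 in HCT116 and -0.35 and -0.73 in PANC1 over DMSO. Over C646, HYOU1 stood at 0.86 and 0.90 in HCT116 but at 1.03 and 0.28 in PANC1, so its sign depended on the reference, unlike that of NUPR1, FAM129A, C1orf24 and BEX2. C646 over DMSO gave HYOU1 -0.97 and -1.03 in HCT116 and -1.38 and -1.01 in PANC1.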
